A study of Homo sapiens with 6 samples.

Results

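The genes described are 10 named markers of epithelial identity and of the epithelial-mesenchymal transition (EMT) in HCT116 cells, a human colorectal carcinoma line. They were chosen by name, with earlier results of these data known. CDH1, EPCAM, CLDN3, CLDN4, OCLN and GRHL2 mark epithelial cells, VIM, ZEB1 and SNAI2 mark mesenchymal cells and the transition, and CD44 is a cell surface receptor used as a marker of invasive and stem-like tumor cells. All 10 of 10 were found among the 28491 genes of the deposited count table, and all 10 passed the filter on low counts that left 16260 genes for testing.

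Poly(A) RNA was sequenced 48 h after HCT116 cells were transfected with a lipid reagent, in 3 libraries with a control plasmid (NC) and 3 with a plasmid that overexpresses RBM47 (RBM47-OE). RBM47 is an RNA-binding protein known for its part in splicing and mRNA stability. The comparison asks which marker transcripts differed after RBM47 was raised. All 6 libraries come from 1 cell line, and no other genotype or drug is named in the labels. The sources differ on the construct, which is pIRES-hrGFP-1a in the methods and pcDNA3.1-3xFlag-RBM47 in the labels, and likewise on the medium (McCoy's 5A or DMEM) and the library kit (KC stranded or NEBNext directional). Nothing in the labels says whether the 3 libraries of a group came from separate cultures, so p-values measure only the spread between these libraries, which may be technical. Transfected cells were not sorted from untransfected ones in the steps described, and in bulk RNA fewer cells of a type cannot be told apart from less RNA per cell.

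Epithelial cells are held together by adherens junctions, built on the cadherin CDH1, and by tight junctions, built on claudins and occludin, and GRHL2 is a transcription factor known to keep these genes on. In EMT, factors of the SNAI and ZEB families bind short DNA sites called E-boxes in the promoters of such genes and repress them, while cytoskeletal and matrix genes such as VIM rise. Tumor cells can hold both kinds of marker at once, and CD44 is known to be spliced into many isoforms that differ between epithelial and mesenchymal cells.

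The libraries held 26792409 to 35477983 counts on genes. RBM47 itself had an FPKM (fragments scaled by transcript length and by the mapped fragments of the library) of 1.91, 2.33 and 1.94 in NC and 131.3, 130.4 and 127.0 in RBM47-OE (replicates 1, 2 and 3), with a log2 fold change of 5.90 (edgeR's quasi-likelihood test, standard error 0.096, adjusted p = 1.7e-25). This total includes reads from the plasmid. The groups differed in how levels tracked the GC content of exons. Over 16233 genes, Spearman's rho of exonic GC content with the log2 difference from NC was -0.41, -0.59 and -0.67 in the RBM47-OE libraries and between -0.16 and 0.13 when each NC library was set against the others. In the tenth of genes with the lowest GC content, whose median was 37.4%, the median log2 fold change was 0.38, and in the highest, at 64.0%, it was -0.23. The members ranged from 41.1% GC in SNAI2 to 69.2% in CLDN3. The fold change of each member is therefore given also from a fit with a GC offset, in which each library's trend with exonic GC content was removed. For the other genes the value with the offset is given only in part. RBM47-OE replicate 1 lay between the NC libraries and the other RBM47-OE libraries in this trend, and for genes named below the calls that turn on it are given without it.

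The labelled cell type was compared with its markers. The 3 most abundant keratins of a simple epithelium were high in all libraries, with FPKM of 870.16 to 1056.65 for KRT19, 443.41 to 562.39 for KRT8 and 274.04 to 381.41 for KRT18. Among intestinal markers, CDH17 and CEACAM5 had 3 counts or fewer in every library and LGALS4 in all but 1, so these 3 were near 0. They do not stand for the whole list of epithelial surface and cytoplasmic genes, of which 16 of 20 passed the filter on low counts. The 11 fibroblast markers had a summed FPKM of 1.53 to 1.80 in NC and 1.38 to 1.82 in RBM47-OE, almost all of it from COL1A1, and the 9 blood and endothelial markers summed to 0.38 to 0.59 and 0.35 to 0.40. The summed FPKM of 20 epithelial surface and cytoplasmic genes was 2278.84 to 2466.23 in NC and 2117.89 to 2377.25 in RBM47-OE. The ranges overlapped through RBM47-OE replicate 1 alone, and RBM47-OE replicates 2 and 3 were below every NC library.

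Of the 10 markers, EPCAM and OCLN were higher in RBM47-OE at an adjusted p-value under 0.05, and 8 did not pass the test. With edgeR's quasi-likelihood test this was 2 of 10 higher, beside 19.1% of all tested genes, and 0 of 10 lower, beside 16.9% of all tested genes. At an unadjusted p-value under 0.05 the same test gave 2 higher and 1 lower, CLDN4, and DESeq2 gave 2 higher and 0 lower after adjustment. The share called higher was near that of genes in general, and in either direction 2 of 10 stood beside 35.9% of all genes. With the GC offset EPCAM alone was called, 1 of 10, where 5.99% of all tested genes were higher and 8.47% lower. In limma on log2(FPKM + 1) values 3 were higher and 0 lower, beside 16.3% and 9.02% of all genes. Without RBM47-OE replicate 1 edgeR called 4 higher and 1 lower, beside 23.5% and 21.3%, or 44.9% in either direction. The study's own cut-offs, a fold change over 1.5 at p under 0.01 without adjustment, were used by the study with DESeq2. Applied here to the edgeR fit, they took in 0 of the 10 and 2.38% of all genes, 1.51% higher and 0.873% lower. In the edgeR fits of all 6 libraries, without and with the GC offset, no marker was called with a change of 1.5-fold or more, and the median log2 fold change of the 10 was 0.06 without and 0.13 with the GC offset.

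**Figure D1:**
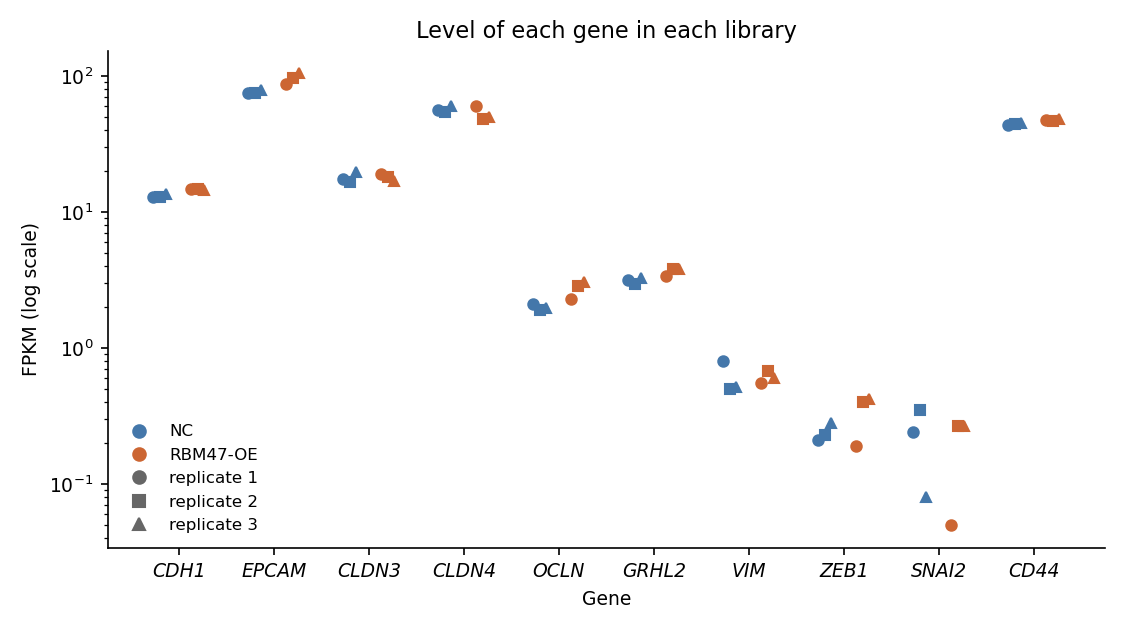
FPKM of the 10 marker genes in each library on a log axis, with 1 point per library, NC and RBM47-OE side by side in 2 colors and the replicate shown by the shape of the point. EPCAM, CDH1, OCLN, GRHL2 and CD44 had no overlap between groups, and VIM, ZEB1 and SNAI2 stood below 1 FPKM in all libraries.

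**Figure D2:**
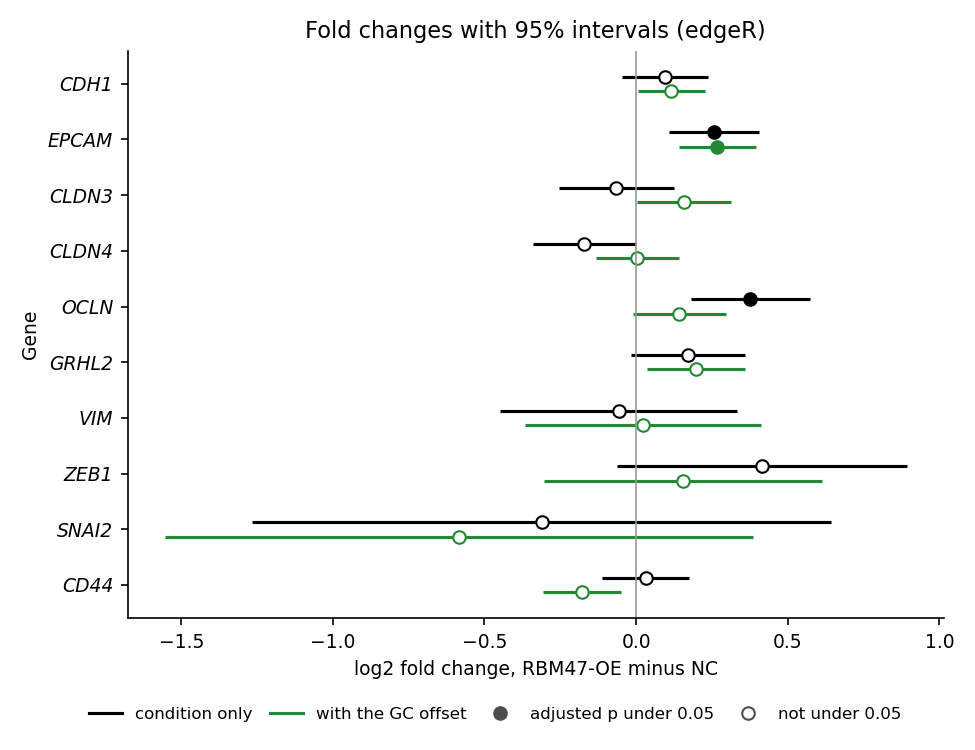
Log2 fold change of each marker, RBM47-OE minus NC, with its 95% interval from edgeR, without the GC offset in black and with it in green, where filled points have an adjusted p-value under 0.05. EPCAM was called in both fits at 0.26 and 0.27, OCLN only without the offset, and the intervals of VIM, ZEB1 and SNAI2 were the widest.

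EPCAM (ENSG00000119888, chromosome 2 of GRCh38, 47345158 to 47387601, plus strand) encodes the epithelial cell adhesion molecule, a membrane glycoprotein of most carcinomas. For replicates 1, 2 and 3 in that order, as for every gene that follows, its FPKM was 75.33, 75.15 and 78.27 in NC and 87.57, 95.73 and 104.17 in RBM47-OE. Each RBM47-OE value exceeded every NC value, and replicate 1 was the nearest to NC. NC averaged 76.3 ± 1.75 (SD, n = 3), and RBM47-OE averaged 95.8 ± 8.30 (SD, n = 3). On normalized counts EPCAM was 1.20-fold higher (95% interval 1.08 to 1.33), with a log2 fold change of 0.26 (standard error 0.072, adjusted p = 0.0070, edgeR). The GC offset left it at 0.27 (adjusted p = 0.0055, edgeR), and EPCAM exons have 48.1% GC, near the median of 49.0% over tested genes. It was called in 17 of 18 alternative analyses. Without NC replicate 2 its log2 fold change was 0.24 and its adjusted p-value 0.059 with edgeR.

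OCLN (ENSG00000197822, chromosome 5, 69492292 to 69558104, plus strand) encodes occludin, a membrane protein of tight junctions. Its FPKM was 2.12, 1.92 and 1.97 in NC and 2.30, 2.86 and 3.06 in RBM47-OE. The groups did not overlap, although RBM47-OE replicate 1 was only just above the highest NC library. OCLN was 1.30-fold higher (95% interval 1.13 to 1.49) with a log2 fold change of 0.38 (standard error 0.095, adjusted p = 0.0033, edgeR). Its exons have 41.8% GC, and the bin of genes with a median of 42.5% GC had a median log2 fold change of 0.22. Under the GC offset the log2 fold change of OCLN was 0.14 and the call was lost (adjusted p = 0.21, edgeR). It was called in 14 of 18 alternatives.

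The promoter windows of OCLN and CLDN3 are shown at the E-boxes they hold, since the SNAI and ZEB factors described below bind this kind of site. The letters searched were CAGGTG and its reverse complement CACCTG, on both strands, in RefSeq windows of 250 bases before to 50 bases after each annotated start on GRCh38.p14. Of 35116 windows, 20.6% held at least 1 match. A window was at hand for 6 of the 10 genes. Capitals mark the match, each sequence runs 5′ to 3′ on the strand of the gene, and the positions are those of the printed bases.
OCLN, chr5:69492504-69492529, plus strand: atccgagtttCAGGTGaattggtcac
OCLN, chr5:69492647-69492672, plus strand: taggacgcagCAGGTGggactcgcgg
OCLN, chr5:69492815-69492839, plus strand: ggtgcggcgtCAGGTGcgcccgcca
CLDN3, chr7:73770221-73770244, minus strand: aagccacaggCAGGTGcaggcgca

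OCLN has 2 windows, from 2 annotated starts, and they held 3 matches. The matches began 33 and 133 bases before a start and 36 bases after one. The match of CLDN3 began 37 bases after its start. The window of ZEB1, over its 7 annotated starts, held 4 matches, and the windows of CLDN4, VIM and CD44 held none of these letters. A match describes the letters only, and binding was not measured here.

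CDH1 (ENSG00000039068, chromosome 16, 68737292 to 68835537, plus strand) encodes E-cadherin, the adhesion molecule of epithelial adherens junctions. Its FPKM was 12.93, 12.93 and 13.45 in NC and 14.73, 14.85 and 14.51 in RBM47-OE. The RBM47-OE values stood together above the NC values, on FPKM and on normalized counts. The difference on normalized counts was 1.07-fold (95% interval 0.968 to 1.18), and edgeR's quasi-likelihood test did not call it (log2 fold change 0.09, standard error 0.069, adjusted p = 0.30). After the GC offset the log2 fold change was 0.12 (adjusted p = 0.16, edgeR). On log2(FPKM + 1) values limma gave 0.15 with an adjusted p-value of 0.047, and edgeR scaled by library totals gave 0.16 with an adjusted p-value of 0.063.

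CLDN3 and CLDN4 encode claudins, the strand-forming proteins that seal tight junctions, and lie near each other on chromosome 7. CLDN3 (ENSG00000165215, 73768997 to 73770270, minus strand) had an FPKM of 17.54, 16.62 and 19.55 in NC and 18.99, 17.98 and 16.86 in RBM47-OE, and the groups overlapped. Its log2 fold change was -0.07 (95% interval -0.26 to 0.13, adjusted p = 0.62, edgeR). It has the highest GC content of the 10 genes, and with the GC offset the sign turned, to 0.16 (adjusted p = 0.17, edgeR).

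CLDN4 (ENSG00000189143, 73799542 to 73832690, plus strand) had an FPKM of 55.65, 54.25 and 59.57 in NC and 59.71, 48.18 and 49.95 in RBM47-OE. RBM47-OE replicates 2 and 3 were below all NC libraries, and replicate 1 was above them. In edgeR it was at -0.17 on the log2 scale (standard error 0.082, adjusted p = 0.11). Without RBM47-OE replicate 1 it was -0.28 (adjusted p = 0.00076, edgeR), and with the GC offset it was 0.00 (adjusted p = 0.98, edgeR).

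GRHL2 (ENSG00000083307, chromosome 8, 101492439 to 101669726, plus strand) had an FPKM of 3.15, 2.94 and 3.27 in NC and 3.40, 3.82 and 3.84 in RBM47-OE. The groups did not overlap, and RBM47-OE replicate 1 was again the lowest of its group. The 1.12-fold difference (95% interval 0.988 to 1.28) did not pass the test, with a log2 fold change of 0.17 (standard error 0.091, adjusted p = 0.15, edgeR). The GC offset gave 0.20 (adjusted p = 0.097, edgeR). Without RBM47-OE replicate 1 the log2 fold change was 0.22 with an adjusted p-value of 0.043 in edgeR.

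The mesenchymal and EMT markers were scarce in both groups. VIM (ENSG00000026025, chromosome 10, 17228241 to 17237593, plus strand) encodes vimentin, the intermediate filament of mesenchymal cells. Its FPKM was 0.80, 0.50 and 0.52 in NC and 0.55, 0.68 and 0.60 in RBM47-OE, from 90 to 127 counts per library. The groups overlapped, with the highest and the lowest value both in NC. The log2 fold change was -0.06 (95% interval -0.45 to 0.33, adjusted p = 0.85, edgeR), so changes of up to about 1.26-fold up or 0.733-fold down lie inside the interval.

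ZEB1 (ENSG00000148516, chromosome 10, 31318495 to 31529814, plus strand) encodes a repressor of CDH1 and of other epithelial genes. Its FPKM was 0.21, 0.23 and 0.28 in NC and 0.19, 0.40 and 0.42 in RBM47-OE, from 56 to 119 counts. RBM47-OE replicates 2 and 3 were above all NC libraries, and replicate 1 was below them. In edgeR it was at 0.42 on the log2 scale (standard error 0.23, adjusted p = 0.17), and 0.15 with the GC offset (adjusted p = 0.71). Without RBM47-OE replicate 1 it was 0.70 with an adjusted p-value of 0.0061 in edgeR, the largest fold change of a called marker in any of the analyses.

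SNAI2 (ENSG00000019549, chromosome 8, 48917598 to 48921740, minus strand) encodes Slug, a repressor of the SNAI family. Its counts were 24, 46 and 9 in NC and 6, 31 and 28 in RBM47-OE, at an FPKM of 0.24, 0.35 and 0.08 and of 0.05, 0.27 and 0.27. NC replicate 3 and RBM47-OE replicate 1 were low and the other 4 libraries were higher, so the spread within a group was wider than the difference between groups. The log2 fold change was -0.31 with a 95% interval of -1.27 to 0.64 (adjusted p = 0.64, edgeR), and -0.58 with the GC offset (adjusted p = 0.45, edgeR).

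CD44 (ENSG00000026508, chromosome 11, 35138882 to 35232402, plus strand) encodes the main receptor for hyaluronan, a sugar polymer of the extracellular matrix. Its FPKM was 43.62, 44.56 and 44.89 in NC and 47.54, 46.86 and 48.50 in RBM47-OE. The groups did not overlap on FPKM, but they did on normalized counts. The log2 fold change was 0.03 (95% interval -0.11 to 0.17, adjusted p = 0.76, edgeR). In the GC offset fit the sign turned, to -0.18 (adjusted p = 0.057, edgeR), and with the offset and without RBM47-OE replicate 1 it was -0.24 (adjusted p = 0.0073, edgeR).

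These CD44 values sum all isoforms of the gene, and splicing was not analysed here. The study's RT-qPCR primers show what such a sum joins. The forward primer lies in the exon at 35189835 to 35190065 of chromosome 11. The reverse primers span the join from that exon to different later exons. Each therefore reads a different join, which 2 or 3 annotated transcripts share. The sequence of CD44-M-R1 is also listed as CD44-AS-R2, and that of CD44-M-R2 also as CD44-M-R3. Capitals mark the bases that lie in the later exon, and the primers are written 5′ to 3′.
Forward primer: gcacttcaggaggttacat
Reverse primer CD44-AS-R1: CTCATCAAAGtggtagcagg
Reverse primer CD44-M-R1: GTGGTTGAAAtggtagcagg
Reverse primer CD44-AS-R3: GTTGCCTGGAtggtagcagg
Reverse primer CD44-M-R2: TCTTGGTCTCtggtagcagg

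Of the 38 CD44 transcripts in GENCODE 44, the forward primer matched 20. The join read by CD44-AS-R1 enters an exon at 35196746 to 35196874 and is present in 2 transcripts. That of CD44-M-R1 enters the exon at 35201082 to 35201195 in 2 transcripts, and that of CD44-AS-R3 enters an exon that starts at 35204512 in 2 transcripts and ends at 35204640 or at 35204811. CD44-M-R2 reads the join to 35214852 to 35214914 in 3 transcripts, which leaves out the exons entered by the other primers. All of these transcripts add to the same gene count.

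**Figure D3:**
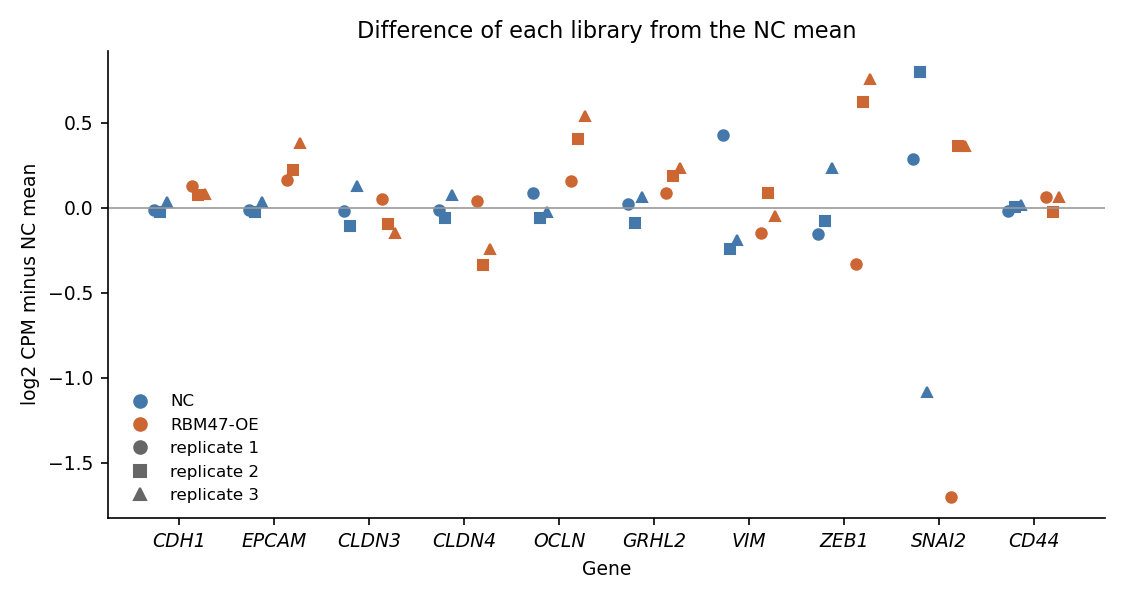
Log2 difference of each library from the mean of the NC libraries for the 10 markers, from normalized CPM. RBM47-OE replicate 1 stood apart from replicates 2 and 3 in CLDN4, OCLN, ZEB1 and SNAI2, and SNAI2 had the widest spread.

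Set beside each other per length, the markers kept 1 order in both groups. By mean FPKM this order was EPCAM, CLDN4, CD44, CLDN3, CDH1, GRHL2, OCLN, VIM, ZEB1 and SNAI2. Ranges over the libraries were separate for neighbours, apart from the following pairs. ZEB1 and SNAI2 overlapped in both groups, and CLDN4 and CD44 overlapped in RBM47-OE alone. Among 16368 protein-coding genes in the NC libraries, EPCAM stood above 97.1%, CLDN4 above 96.0% and CD44 above 94.9%. CLDN3 stood above 87.0%, CDH1 above 82.8%, GRHL2 above 54.4% and OCLN above 45.9%. VIM stood above 31.4%, ZEB1 above 24.9% and SNAI2 above 24.5%, below every epithelial marker of the 10.

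The ratio of CDH1 to VIM within a library does not depend on how libraries are scaled to each other. From FPKM it was 16.2, 25.9 and 25.9 in NC and 26.8, 21.8 and 24.2 in RBM47-OE. The ranges overlapped. NC averaged 22.6 ± 5.60 (SD, n = 3) and RBM47-OE 24.3 ± 2.47 (SD, n = 3), and the low NC value came from the high VIM count of replicate 1.

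On FPKM the groups did not overlap in 5 of the 10 markers, beside 45.4% of all genes compared. RBM47-OE was the higher group in all 5, beside 28.1% of all genes, and the lower group in 0, beside 17.3%. These were EPCAM, OCLN, CDH1, GRHL2 and CD44. On normalized CPM CD44 dropped out and 4 of 10 stood above, beside 23.2% of all genes, and 0 stood below, beside 23.4%. In either direction 46.5% of all genes did not overlap on normalized CPM. For each of these genes an exact two-sided permutation test over libraries returns p = 0.10, which is the lowest that a design of 3 and 3 can reach. Whether these shares differ from those of all genes was not tested.

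**Figure D4:**
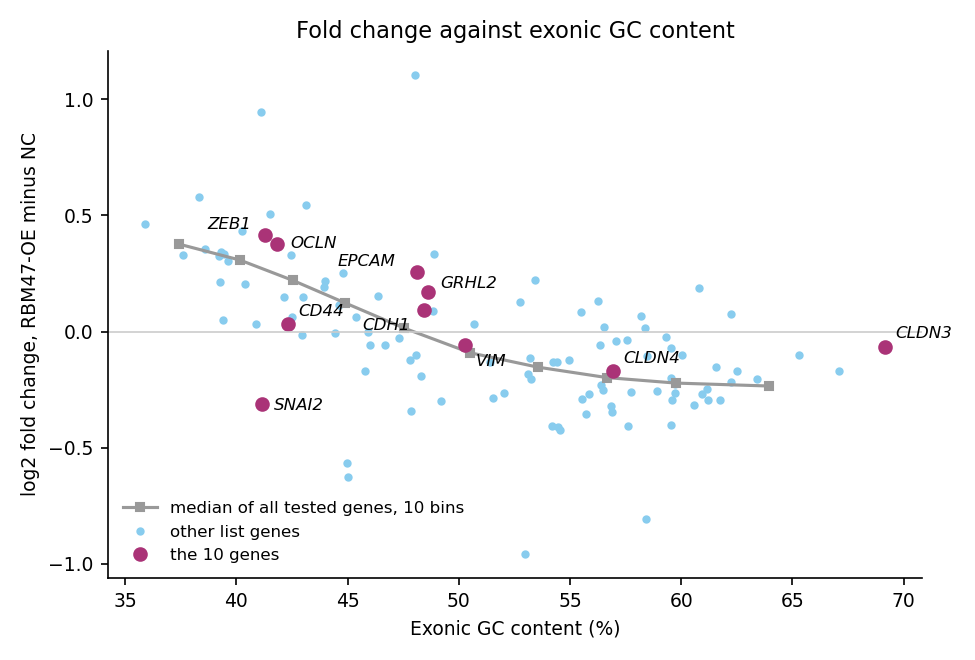
Log2 fold change against exonic GC content in percent for the 10 markers (purple, labelled) and the other genes of the lists (blue), with the medians of all tested genes in 10 bins of GC content as a grey line. The line fell from 0.38 at 37.4% GC to -0.23 at 64.0%. CD44 and SNAI2 stood below it, and CLDN3, at 69.2% GC, lay beyond its last bin. The other markers stood above it, VIM and CLDN4 only slightly.

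The other genes of the same structures were counted in lists. Each list is to be read beside all tested genes, of which 19.1% were called higher and 16.9% lower. With the GC offset these shares were 5.99% and 8.47%. Whether a list differs from all genes was not tested. Of 12 adherens junction genes tested, 2 were higher, 4 were lower and 6 were not called, with a median log2 fold change of 0.01, beside 19.1% higher and 16.9% lower among all genes and an all-gene median of 0.00. CDH3, the placental cadherin, had a log2 fold change of -0.20 (adjusted p = 0.025, edgeR), and JUP, plakoglobin, of -0.25 (adjusted p = 0.010, edgeR). With the GC offset CDH3 was at -0.07 and JUP at -0.04, and neither was called. CTNNA1, the catenin that ties cadherins to actin, was not called at -0.10. In the fit with the offset 0 were higher and 2 were lower, where 2 higher had an unadjusted p-value under 0.05. Of those lower in both fits there was 1, NECTIN1, a nectin adhesion molecule named after its values were seen, at -0.40 without and -0.20 with the offset.

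Of 25 tight junction genes tested, CLDN3, CLDN4 and OCLN among them, 7 were higher, 2 were lower and 16 were not called, with a median of -0.0019. Some genes of the list encode polarity proteins, which set the apical side of an epithelial cell, and those given here were named after their values were seen. PARD3 rose by 0.33 on the log2 scale, from an FPKM of 7.46, 7.65 and 7.53 to 9.14, 10.68 and 10.19 (adjusted p = 0.0011, edgeR). PATJ rose by 0.54 (adjusted p = 4.9e-05) and PALS1, its binding partner, by 0.58 (adjusted p = 5.9e-05), both in edgeR. All 3 were also called with the GC offset, at 0.37, 0.36 and 0.25. Their groups did not overlap on FPKM. PARD6B, another polarity protein, rose by 0.30 (adjusted p = 0.015, edgeR), and was at 0.01 with the GC offset. CRB3, the Crumbs protein that binds PALS1, was at -0.15 and was not called (adjusted p = 0.15, edgeR), although its RBM47-OE values were all below its NC values on FPKM, and it was at 0.06 with the GC offset.

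The lower tight junction genes were CLDN7, at -0.26 (adjusted p = 0.0095, edgeR), and LSR, the lipoprotein receptor of tricellular contacts, at -0.20 (adjusted p = 0.034, edgeR). With the GC offset CLDN7 was at -0.07 and LSR at 0.01, and neither was called. F11R, the junctional adhesion molecule, was at -0.12 and was not called. With the offset 4 of the 25 genes were higher and 0 lower, where 2 lower had an unadjusted p-value under 0.05.

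Desmosomes, which anchor keratin filaments between cells, had 8 of 10 genes tested, of which 3 were higher, 0 were lower and 5 were not called. Among all genes 19.1% were higher and 16.9% lower. The median log2 fold change was 0.21, 1 gene was lower at an unadjusted p-value under 0.05, and DESeq2 called 4 higher and 0 lower. The desmosomal cadherin DSG2 rose by 0.34 (adjusted p = 0.0012, edgeR) and PERP, a desmosomal membrane protein, by 0.20 (adjusted p = 0.021, edgeR). With the GC offset DSG2 was at 0.03 and PERP at -0.07, and neither was called. PKP3, a plakophilin of the desmosomal plaque, was at -0.17 and was not called, but without RBM47-OE replicate 1 it was called at -0.23 (adjusted p = 0.0026, edgeR), and the list then had 6 higher and 1 lower. Under the GC offset 0 genes of the list were called in either direction, 1 was higher at an unadjusted p-value under 0.05 and 0 were lower, and the median was 0.04. The median exonic GC content of the called genes was 39.4%.

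Among 14 of 18 epithelial transcription factors tested, 1 was higher, 1 was lower and 12 were not called, with a median of -0.07. EHF, an ETS factor of epithelial cells, had an FPKM of 13.15, 11.87 and 13.05 in NC and 15.84, 20.66 and 20.47 in RBM47-OE. The groups did not overlap, and EHF rose by 0.51 on the log2 scale (standard error 0.082, adjusted p = 8.8e-05, edgeR). After the GC offset it was 0.26 higher (adjusted p = 0.0055, edgeR), and it was called in 18 of 18 alternatives. The related ELF3 was at -0.13 and KLF4, a factor of differentiating epithelium, at 0.02, and neither was called, but without RBM47-OE replicate 1 ELF3 was called at -0.25 (adjusted p = 0.0023, edgeR). In the GC offset fit KLF4 was at 0.21 (adjusted p = 0.048, edgeR).

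Of 16 epithelial surface and cytoplasmic genes tested, EPCAM among them, 3 were higher, 8 were lower and 5 were not called, with a median of -0.25. The shares among all genes were 19.1% higher and 16.9% lower. KRT8 and KRT18, the keratin pair of simple epithelia, fell by 0.27 (adjusted p = 0.012) and by 0.36 (adjusted p = 0.0011) on the log2 scale in edgeR. KRT19 was at -0.10 and was not called, but without RBM47-OE replicate 1 it was called at -0.20 (adjusted p = 0.013, edgeR). Median exonic GC content was 56.7% among the lower genes and 43.9% among the higher ones. In the fit with the offset EPCAM was the 1 gene called higher and 0 were lower, where 2 lower had an unadjusted p-value under 0.05.

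**Figure D5:**
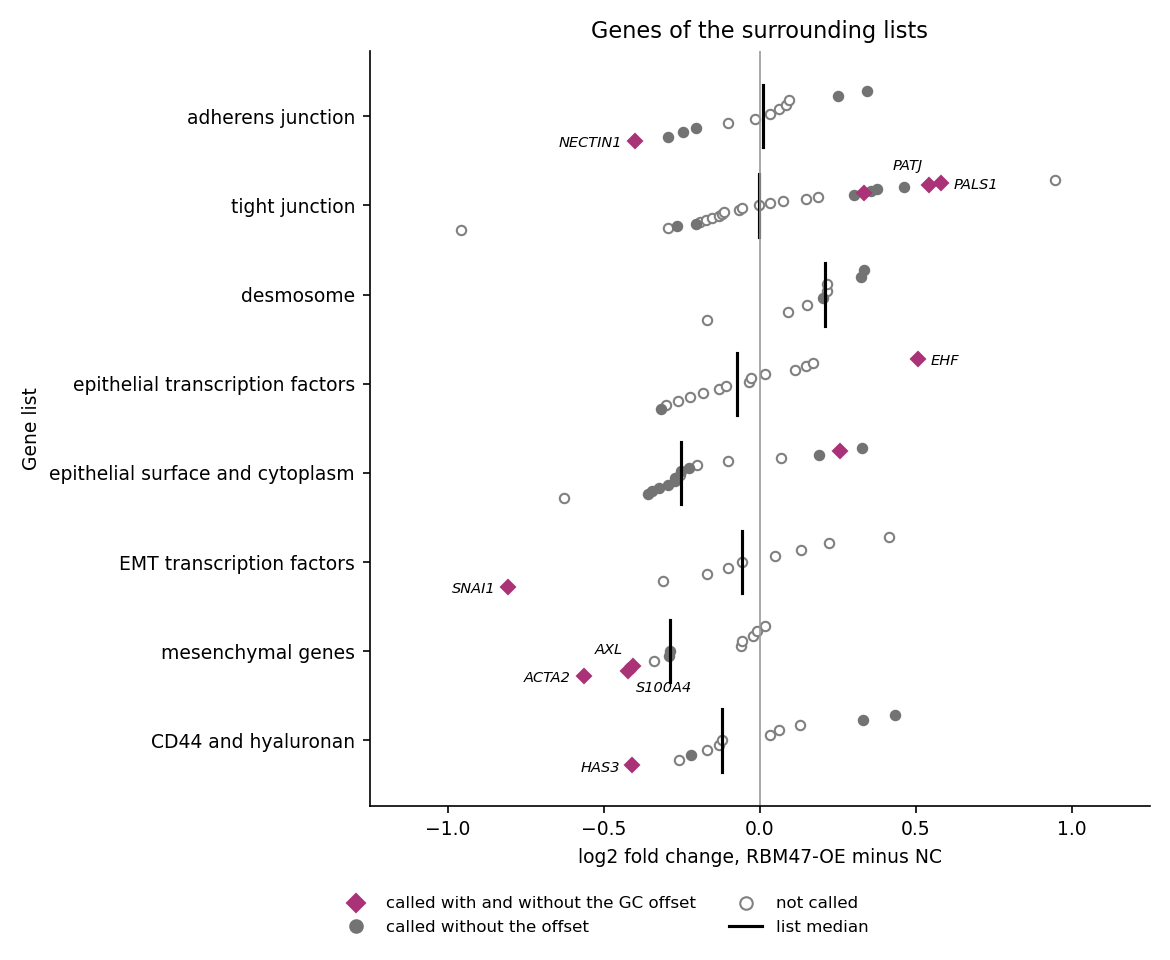
Log2 fold changes of the genes of 8 lists, with 1 point per tested gene and the list median as a bar. Purple diamonds were called with and without the GC offset, and grey points only without it. Open points were not called without the offset, and some of them were called with it. SNAI1 stood farthest to the low side among the called genes, at -0.81.

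Among 15 EMT transcription factors, 9 were tested. Of these, 0 were higher, 1 was lower and 8 were not called, with 0 higher and 2 lower at an unadjusted p-value under 0.05 and 0 higher and 2 lower by DESeq2. The gene called lower was SNAI1, which encodes Snail, a repressor of CDH1. Its FPKM was 7.25, 7.21 and 7.65 in NC and 4.33, 4.95 and 4.02 in RBM47-OE. Each RBM47-OE value was below every NC value, and replicate 1 stood with the others. SNAI1 was at 0.572 times its NC level, a log2 fold change of -0.81 (standard error 0.11, adjusted p = 3.2e-05, edgeR). With the GC offset it was -0.62 (adjusted p = 0.00045, edgeR), and it was called in 18 of 18 alternatives, between -0.87 and -0.58. In the fit with the offset 1 gene of the list was higher and 2 were lower, beside 5.99% and 8.47% of all tested genes. Of the lower genes, 1 was called in both fits.

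The other named EMT factors were not called without the GC offset. FOXC1, a forkhead factor, was at 0.13 (adjusted p = 0.15, edgeR), and was 0.31 higher with the GC offset (adjusted p = 0.00078, edgeR). TCF3, an E-box binding factor, was at -0.17 (adjusted p = 0.057, edgeR), and without RBM47-OE replicate 1 it was called at -0.20 (adjusted p = 0.0062). ZEB2 and TWIST2 had 3 counts or fewer in every library.

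Of 16 mesenchymal genes, VIM among them, 11 were tested. In edgeR 0 were higher, 5 were lower and 6 were not called, beside 19.1% higher and 16.9% lower among all genes. The median was -0.29, and at an unadjusted p-value under 0.05 and by DESeq2 the counts were also 0 higher and 5 lower. Under the GC offset 3 were lower and 0 higher, with a median of -0.14, and at an unadjusted p-value under 0.05 1 was higher and 5 were lower. S100A4, a calcium-binding protein raised in metastatic cells, had an FPKM of 171.26, 178.96 and 172.22 in NC and 149.71, 124.17 and 134.73 in RBM47-OE. It fell by 0.42 in log2 units (adjusted p = 0.00025, edgeR), and by 0.27 with the GC offset (adjusted p = 0.0051). AXL, a receptor tyrosine kinase, was at -0.41 (adjusted p = 0.00022) and ACTA2, smooth muscle actin, at -0.56 (adjusted p = 0.0068), both in edgeR and both named after their values were seen.

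ITGA5, the fibronectin receptor subunit, was called in edgeR without the GC offset, at -0.29 (adjusted p = 0.0037). With it ITGA5 was at -0.13 and was not called. CDH2, N-cadherin, had 3 counts or fewer in all but 1 library, and MMP2 and LOX in every library. The summed FPKM of the mesenchymal list was 241.33 to 252.49 in NC and 189.49 to 219.67 in RBM47-OE, most of it from S100A4.

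Of 13 genes of the CD44 and hyaluronan list, 11 were tested, of which 2 were higher, 2 were lower and 7 were not called, with a median of -0.12. HAS3, which makes hyaluronan, had an FPKM of 21.84, 20.15 and 21.07 in NC and 15.64, 14.72 and 19.54 in RBM47-OE. It fell by 0.41 in log2 units (adjusted p = 0.00080, edgeR), and by 0.25 with the GC offset (adjusted p = 0.045). EZR and MSN, which link CD44 to actin, were at -0.13 and -0.17 and were not called, and with the GC offset MSN was at -0.25 (adjusted p = 0.0080, edgeR). Without RBM47-OE replicate 1 and without the offset MSN was called at -0.21 (adjusted p = 0.0047, edgeR). With the offset 0 genes of the list were higher and 2 were lower, with 2 higher at an unadjusted p-value under 0.05.

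Over all lists, 149 genes were named and 110 were tested, of which 19 were higher, 23 were lower and 68 were not called. The share called higher was 17.3%, beside 19.1% of all genes, and the share lower was 20.9%, beside 16.9%. After the GC offset 9 were higher and 9 lower, and 6 higher and 6 lower genes were called in both fits. Median exonic GC content was 40.4% among the genes called higher and 56.8% among those called lower.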

How the data were processed

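The members, the gene lists and the tests were chosen with earlier results of these data known. Poly(A) RNA of HCT116 cells was sequenced in 3 NC and 3 RBM47-OE libraries. Reads were trimmed by the authors and aligned with HISAT2 to GRCh38, and the deposited values are counts of uniquely mapped reads per gene, not normalized, and FPKM values, which the authors made from the same alignments per gene length and mapped fragments. The counting tool, annotation and use of strand are not given in the sources used here. The submitters' processing notes name bcl2fastq, FastQC, HISAT2 and DESeq2. Columns of other samples numbered 0.

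Counts were tested with edgeR 4.0.16 in R 4.3.3 (filterByExpr with a minimum count of 10 and a minimum total count of 15, TMM, quasi-likelihood test on the condition alone), and p-values were adjusted over all tested genes by the Benjamini-Hochberg method. A call is an adjusted p-value under 0.05. The GC offset was a loess curve (span 0.3) of each library's difference from the mean of all libraries on exonic GC content, from GENCODE 44 and GRCh38, so any change that tracks GC content is removed with it. The deposited FPKM values were tested with limma 3.58.1 after taking log2 with a pseudocount of 1 or of 0.1, keeping genes whose mean FPKM was 0.1 or more, and a fold change on that scale understates the change of low genes. DESeq2 1.42.0, RLE factors, library totals, no filter, a replicate block, a length offset, the study's thresholds (unadjusted p-value under 0.01 and fold change over 1.5) and each library left out in turn were alternatives. The scripts for edgeR, DESeq2 and limma were tested on simulated data. A gene with 3 counts or fewer was treated as being at the floor.

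All 10 members were named. Of each list the 3 genes with the highest mean FPKM, besides members, and genes called with a fold change over 1.5 were named, and other genes were named after their values were seen. Of the genes this rule picks, 1 is not reported here. Replicates of a group differed by more than counting error. The chi-square per degree of freedom was 3.41 to 4.86 between NC libraries and 9.09 to 19.8 between RBM47-OE libraries. Annotation was matched by gene identifier for 28402 of 28491 genes. List genes with no row in the count table, 12 in all, were not analysed here.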

Additional observations from a re-analysis of the deposited data

How the results depend on the processing

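With the GC offset, 1 member was higher, 9 list genes were higher and 9 lower, and 973 genes in all were higher and 1375 lower. With the GC offset and without RBM47-OE replicate 1, an analysis added after seeing the data, 1 member was higher and 1 lower, 8 list genes were higher and 12 lower, and 1111 genes in all were higher and 1568 lower. The study's thresholds, applied to the edgeR fit, gave 0 members, 1 list gene higher and 1 lower, and 245 and 142 genes in all. With limma on log2(FPKM + 1), 11 list genes and 1586 genes in all were lower, with log2(FPKM + 0.1) 11 and 1599, and with no filter on low FPKM 4 and 908, where 1410 were higher. The cause was not tested.

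With each library left out in turn, members higher ranged from 1 (without NC replicate 2) to 4 (without RBM47-OE replicate 1) and members lower from 0 to 1. List genes higher ranged from 13 to 24 and lower from 12 (without NC replicate 3) to 32, and all genes higher from 2090 to 3864 and lower from 1675 (without NC replicate 2) to 3508. Members that did not overlap on FPKM ranged from 5 to 7. With fewer libraries a lack of overlap is easier to reach for any gene. The share of all genes was not computed for these sets, so the range says nothing particular about the members. The mean CDH1 to VIM ratio ranged from 21.0 to 25.9 in NC and from 23.0 to 25.5 in RBM47-OE, and on normalized counts it was 26.5 in NC and 28.5 in RBM47-OE.

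The correlations of same-numbered libraries, after each group's mean was removed, were -0.06, -0.01 and -0.02, so no pairing by number was seen. With 3 libraries per group and differences that run through whole libraries, these values cannot show whether the libraries were paired. With the number as a block, 2 members were higher and 0 lower, 17 list genes were higher and 22 lower, and 2957 genes in all were higher and 2510 lower. With the block and the GC offset the counts were 1 member higher, 9 list genes higher and 10 lower, and 1022 and 1428 genes in all.

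The sign of 5 genes that were not called in the edgeR fit of all 6 libraries turned under some settings. CLDN3 was at 0.157 with the GC offset, 0.159 with the block added, 0.153 with the offset and without RBM47-OE replicate 1, 0.0298 with the length offset, and 0.0045, 0.0048 and 0.0045 with limma on log2(FPKM + 1), on log2(FPKM + 0.1) and unfiltered. With each library left out it ranged from -0.12 to 0.00049, positive without NC replicate 3. CLDN4 was at 0.0039 with the GC offset and 5.2e-05 with the block added. VIM was at 0.0052 with library totals, 0.0227 with the GC offset, 0.0354 with the block added, 0.0883 with the offset and without RBM47-OE replicate 1, and 0.0073, 0.0280 and 0.0073 with the same limma settings. With each library left out it ranged from -0.187 to 0.184, positive also at 0.0081 when RBM47-OE replicate 1 was omitted. SNAI2 ranged from -0.70 to 0.20 with each library left out, positive at 0.20 without NC replicate 2 and at 0.16 without the first RBM47-OE library. CD44 was at -0.178 with the GC offset, -0.181 with the block added and -0.0782 with the length offset. With the GC offset and without RBM47-OE replicate 1 it was called with the turned sign, at -0.239 (adjusted p = 0.0073, edgeR). VIM, ZEB1 and SNAI2 rested on 6 to 127 counts per library, which limits their precision.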

Other observations

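The genes whose levels ran most like those of CDH1 over the 6 libraries were TGIF1, TMTC1 and HK2. Among 14006 genes with a mean log2 CPM of at least 0, Pearson's r with CDH1 on log2 CPM was 0.998, 0.996 and 0.996. The 6 libraries share the contrast between the groups, and the values are a description. TGIF1, a homeobox corepressor, had a log2 fold change of 0.13 (adjusted p = 0.15, edgeR). TMTC1 was at 0.50 (adjusted p = 0.011, edgeR), and HK2, a hexokinase of glycolysis, at 0.25 (adjusted p = 0.010, edgeR).

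COL6A3, a collagen chain and the fibroblast marker called in these data, had 14, 17 and 18 counts in NC and 51, 32 and 29 in RBM47-OE, a log2 fold change of 1.11 (adjusted p = 0.013, edgeR), and without RBM47-OE replicate 1, the highest library, its adjusted p-value was 0.067. PDGFRB and COL1A1, the other fibroblast markers tested, were at -0.41 (adjusted p = 0.52) and -0.07 (adjusted p = 0.67) in edgeR. Of the blood and endothelial markers, VWF alone was tested, with 29 to 50 counts and a log2 fold change of -0.04 (adjusted p = 0.93, edgeR), so 0 were called, and 0 had an unadjusted p-value under 0.05 or a call by DESeq2. CD14 and CD79A did not pass the filter on low counts.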
